A study of Mus musculus with 48 samples.

Results

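The genes described are 10 interferon-gamma inducible GTPases of the mouse, taken by name from a count table of 55357 genes. They comprise 6 guanylate-binding proteins (Gbp2, Gbp3, Gbp5, Gbp6, Gbp7 and Gbp9) and 4 immunity-related GTPases (Irgm1, Irgm2, Igtp and Iigp1). The RNA came from the dorsal dentate gyrus of 24 wild-type C57BL/6J mice, labelled as 6 to 8 weeks old (the study's methods give a somewhat older range), 2 males and 2 females for each injection and day. Each mouse received kainate or saline into the hippocampus of 1 side only and was sacrificed at day 3, 7 or 14. The ipsilateral side, the epileptogenic zone (EZ), and the contralateral side, the peri-ictal zone (PIZ), gave 1 library each. The 48 libraries thus formed 12 groups of 4 mice, given by region, injection and day. No group carried a transgene or a deletion. Kainate, an agonist of glutamate receptors, induces status epilepticus, and the kainate mice were those in which behavioral seizures were seen. The PIZ of a kainate mouse was therefore not injected itself but belonged to a brain that had seized.

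Interferon-gamma, a cytokine made mainly by T and natural killer cells, binds a receptor of the subunits Ifngr1 and Ifngr2, which signals through the kinases Jak1 and Jak2. Target genes of interferons carry GAS or ISRE elements in their promoters, and transcription factors such as Irf1 and Irf9 act at ISRE elements. Type I interferons act through Ifnar1 and Ifnar2 and also lead to ISRE elements. The encoded GTPases are defense proteins of the cytosol. Guanylate-binding proteins (GBP) assemble on bacteria and on the vacuoles of parasites, and Gbp2 and Gbp5 are also tied to inflammasome activation. Among the immunity-related GTPases (IRG), Iigp1 is an effector that loads onto pathogen vacuoles, while Irgm1, Irgm2 and Igtp sit on host membranes and keep the effectors in check. In brain these genes are known from infection and from interferon treatment, above all in microglia and astrocytes.

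On GRCm39 the 10 genes lie in clusters. Gbp5 (ENSMUSG00000105504.5, chromosome 3, 142199739 to 142228105), Gbp7 (ENSMUSG00000040253.16, chromosome 3, 142236044 to 142255910), Gbp3 (ENSMUSG00000028268.15, chromosome 3, 142265731 to 142278979) and Gbp2 (ENSMUSG00000028270.13, chromosome 3, 142326349 to 142343779) follow each other on the plus strand. Gbp9 (ENSMUSG00000029298.16, chromosome 5, 105224332 to 105287452) and Gbp6 (ENSMUSG00000104713.5, chromosome 5, 105418568 to 105443751) are on the minus strand. Irgm1 (ENSMUSG00000046879.8, chromosome 11, 48752795 to 48763164) stands apart from Igtp (ENSMUSG00000078853.9, chromosome 11, 58089840 to 58098417) and Irgm2 (ENSMUSG00000069874.8, chromosome 11, 58090444 to 58113615), whose annotated spans overlap. Iigp1 (ENSMUSG00000054072.13) is on chromosome 18, 60506680 to 60525706.

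Close relatives limit how well reads can be assigned. Of the 38-base windows of the Gbp6 transcripts, 64.4% also occurred in transcripts of another gene, 56.8% in Gm43302 and 55.2% in Gbp10, so the counts of Gbp6 are uncertain. The corresponding shares were 12.6% for Gbp7, 10.5% for Irgm2 and 9.06% for Igtp, and between 1.10% (Irgm1) and 8.23% (Gbp9) for the other 6.

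The promoters of the genes were searched for the sites named above. The genes were taken by name as inducible by interferon-gamma, so an excess of such sites says nothing about these libraries. The entries searched came from the RefSeq promoter table (GRCm38.p6), with 250 bases before and 50 after each start. They were 8 entries for 7 of the 10 genes, 2 of them for Gbp3, and promoters of the remaining genes were not searched. Each entry was found once on its own chromosome in GRCm39. An ISRE-like match, the letters GAAA, any 2 bases and GAAA again on either strand, was present in 7 of the 8 entries, all but the second of Gbp3, against 3.44% of all 32851 promoters. A GAS-like match, TTCNNNGAA, which reads the same on both strands, was present in 4 of the 8, against 8.30% of all promoters. The stretches that hold the ISRE-like matches, each 30 bases, follow 5′ to 3′ in the direction of the gene with the matches in capitals, and are shown for their place in each promoter. The likeness of the capitals was set by the search.
Gbp2, chr3:142326355-142326384, plus strand: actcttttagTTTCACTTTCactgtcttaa
Gbp3, chr3:142265753-142265782, plus strand: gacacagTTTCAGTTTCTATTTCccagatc
Gbp5, chr3:142202520-142202549, plus strand: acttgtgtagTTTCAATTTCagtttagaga
Gbp7, chr3:142236034-142236063, plus strand: gtgtgtgcagTTTCAGTTTCagttctccat
Irgm1, chr11:48762255-48762284, minus strand: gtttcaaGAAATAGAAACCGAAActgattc
Igtp, chr11:58090333-58090362, plus strand: ccatTTCTAGGAActGAAACTGAAAgctgt
Irgm2, chr11:58105724-58105753, plus strand: ccatTTCCAGGAActGAAACTGAAAgctgt
In Igtp and Irgm2 the first run of capitals is a GAS-like match and the second the ISRE-like match. These 2 stretches were identical at 29 of 30 bases, the exception being T8C, from Igtp to Irgm2 and counted from the first base of the stretch. Gbp3 and Irgm1 each held 2 overlapping ISRE-like matches. The first base of the ISRE-like matches lay at positions from -165 (Gbp5) to -24 (Irgm1) relative to the RefSeq start. Gencode M39 transcripts begin farther upstream for several of these genes, so that the stretches of Gbp2, Gbp3, Igtp and Irgm1 lie in annotated exons, those of Gbp5 and Gbp7 partly so, and that of Irgm2 in an intron. Such matches are descriptions of the sequence, and binding was not measured.

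The 10 genes held between 18 and 3362 counts in every library, and library totals lay between 17762656 and 25712975, so that all 10 passed the filter for low counts together with 21390 genes in all. Levels are given as CPM, the counts of a gene scaled to a common library size by TMM. A gene was called when its edgeR quasi-likelihood test gave a Benjamini-Hochberg adjusted p under 0.01 over all genes and the fold change exceeded 1.5. Granule cell markers identified the tissue, and the summed CPM of 7 of them was lower in kainate mice, with medians of 571 and 1196 for kainate and saline in the EZ at day 3 and of 598 and 1220 at day 7. In the PIZ the medians were 725 and 1161 at day 3 and 848 and 1318 at day 7. At day 14 kainate mouse 27 stood apart from the other 3 kainate mice in the EZ, and the calls of the 10 genes at that day are given with and without it. In bulk RNA, fewer cells of a type and less RNA per cell cannot be told apart.

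In saline mice all 10 genes were detected at low levels. Per kilobase of exon and over all 24 saline libraries, Gbp2 was highest, at 1.56 ± 0.62 CPM per kb (SD), and Gbp6 lowest, at 0.335 ± 0.144. The order over all 24 libraries between them was Irgm1, Gbp3, Irgm2, Gbp7, Igtp, Iigp1, Gbp9 and Gbp5. The saline groups differed in this order. In the PIZ the mean of Irgm1 was above that of Gbp2 at day 7, at 1.17 and 1.16 CPM per kb, and at day 14, at 1.25 and 1.16, and in the EZ at day 7 Gbp6 (0.494) was above Gbp5 and Gbp9 (0.434 each). The order also depends on length, taken as all annotated exons of a gene together, from 2561 bases (Gbp2) to 9669 (Gbp9). In CPM without length, the mean of Irgm1 was above that of Gbp2 in each saline group, at 11.2 and 5.59 in the EZ at day 3. Neighbors in the order per kilobase were mostly not separable. Gbp2 exceeded Irgm1 in 15 of 24 libraries, Gbp3 exceeded Irgm2 in 14, and Gbp9 exceeded Gbp5 in 15. The clearer steps were Gbp7 above Igtp and Igtp above Iigp1, each in 22 of 24 libraries. In the EZ of kainate mice at day 7 the same 3 genes led, with Gbp2 at 22.5 ± 8.87, Irgm1 at 15.9 ± 4.73 and Gbp3 at 15.7 ± 3.80 CPM per kb (SD, n = 4), and Gbp9 was lowest at 2.04 ± 0.836.

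In saline mice the regions were compared within the same model. The log2 difference of EZ minus PIZ, averaged over the 3 days, was between 0.09 (Iigp1) and 0.65 (Gbp2) in edgeR, and 0 of 10 genes were called, with 0.0234% of all tested genes called in either direction. At an unadjusted p under 0.05 there were 3, Gbp2, Gbp3 and Gbp6, and 1908 of all 21390 genes, and DESeq2 called 0. When only saline libraries were modeled, Gbp3 was called, along with 160 of all genes against 5 in the model of all libraries. Between day 3 and day 14 in the saline EZ, 0 of 10 genes were called by edgeR or by DESeq2, and 0 had an unadjusted p under 0.05. The background was 0% in edgeR, and DESeq2 called 4 of all genes. Microglia and macrophage markers summed to medians of 677 CPM at day 3 and 452 CPM at day 14 there, and astrocyte markers to 3411 and 1612 CPM.

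**Figure D1:**
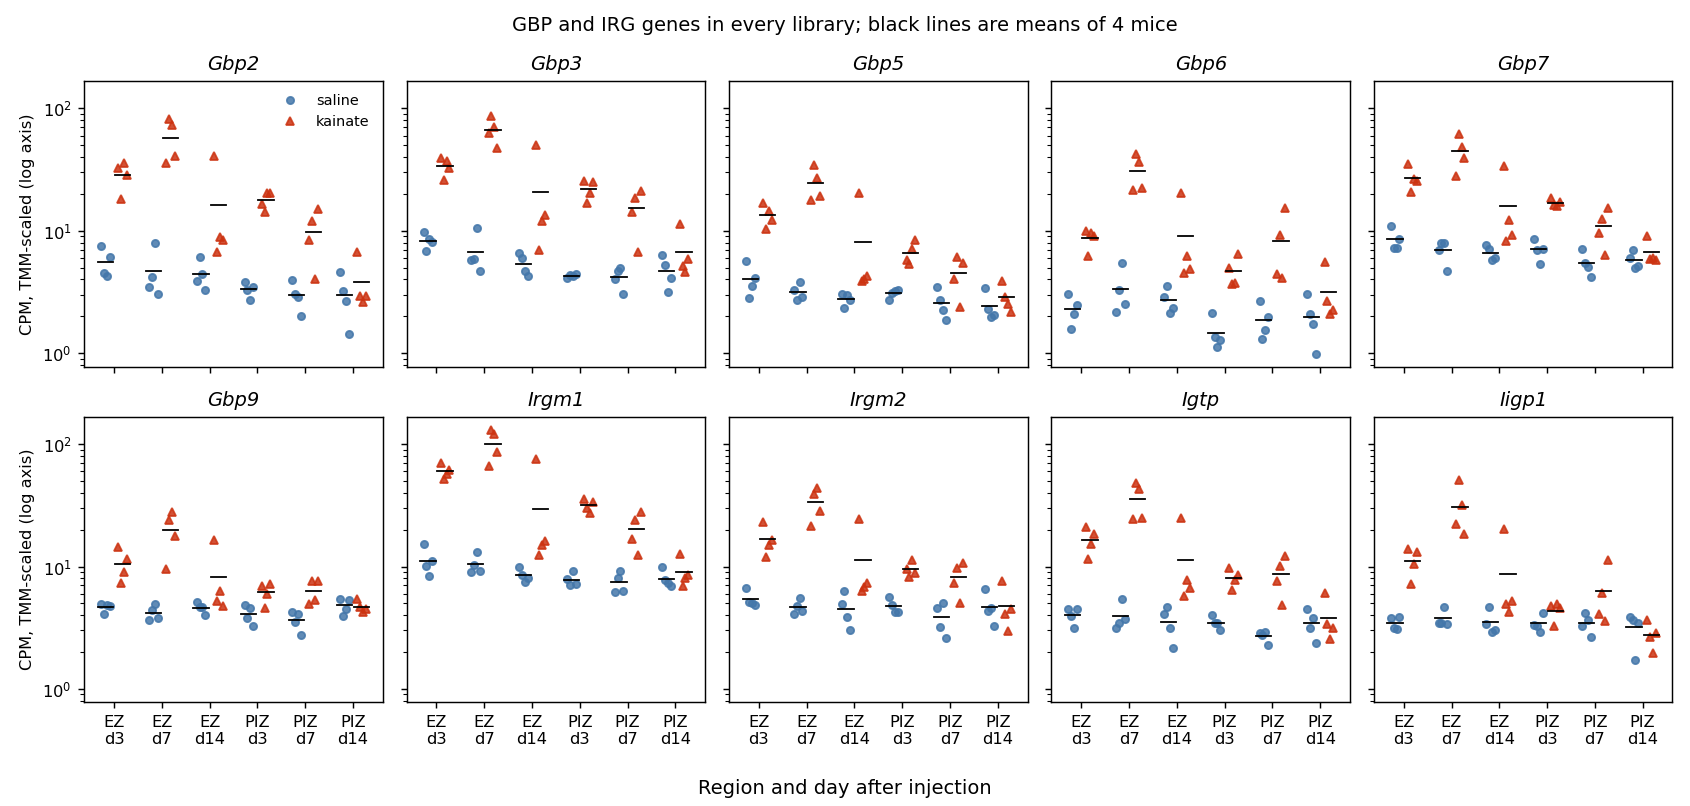
Levels of the 10 genes in all 48 libraries, in CPM on a log axis, by region and day (d3, d7 and d14 stand for days 3, 7 and 14). Circles are saline mice, triangles kainate mice and black lines means of 4. The kainate mice lie above all saline mice for every gene in the EZ at days 3 and 7, and 1 kainate mouse lies far above the others in the EZ at day 14.

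In the EZ at day 3 all 10 genes were upregulated by kainate, from 2.27-fold for Gbp9 to 5.37-fold for Irgm1. All 4 kainate libraries exceeded all 4 saline libraries for each of the 10. Of all tested genes, 16.1% were upregulated DEG in this comparison and 23.9% had all kainate libraries above all saline libraries.

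Among the GBP, Gbp2 measured 32.4, 18.02, 35.9 and 28.7 CPM in the 4 kainate mice against 7.47, 4.47, 4.28 and 6.14 CPM in the saline mice (log2 fold change 2.36, SE 0.43, adjusted p = 2.95e-05). The lowest kainate mouse, 30, was still more than any saline mouse. Gbp3 reached 33.8 ± 6.01 CPM against 8.31 ± 1.19 (SD, n = 4; log2 fold change 2.02, SE 0.37, adjusted p = 3.23e-05). For the remaining GBP the log2 fold change was 1.92 (Gbp6), 1.74 (Gbp5), 1.66 (Gbp7) and 1.18 (Gbp9, SE 0.27, adjusted p = 0.000509). Gbp9 thus had the smallest increase of the 10.

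Of the IRG, Irgm1, the regulator whose loss in mice impairs resistance to intracellular bacteria, had the largest fold change. It measured 69.7, 52.4, 56.6 and 62.0 CPM with kainate and 15.3, 10.01, 8.43 and 11.1 CPM with saline (log2 fold change 2.43, SE 0.34, adjusted p = 7.64e-07). The kainate mice spread little here. Igtp rose by 2.04 (SE 0.34), Irgm2 by 1.62 (SE 0.32) and the effector Iigp1 by 1.68 (SE 0.36) on the log2 scale. These calls held in all 14 alternatives tried, with 10 of 10 genes called in each.

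By day 7 the levels in the EZ were higher still. All 10 genes were upregulated, between 4.71-fold (Gbp9) and 12.4-fold (Gbp2), and again all 4 kainate libraries lay above all 4 saline libraries for each gene. The background was 20.6% upregulated DEG and 23.7% of genes without overlap.

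Gbp2 measured 35.7, 81.5, 72.5 and 41.1 CPM with kainate, in mice 23, 26, 21 and 35, and 3.44, 4.21, 7.96 and 3.04 CPM with saline (log2 fold change 3.63, SE 0.45, adjusted p = 4.75e-08). Irgm1 measured 66.3, 131, 121 and 86.7 CPM in the same kainate mice and 9.04, 10.4, 13.1 and 9.13 CPM in the saline mice (3.28, SE 0.35, adjusted p = 1.61e-08). For both genes mice 26 and 21 were high and mice 23 and 35 lower. Iigp1 measured 22.4, 51.2, 31.7 and 18.4 CPM with kainate and between 3.41 and 4.70 CPM with saline (3.04, SE 0.38, adjusted p = 4.61e-08). The spread among kainate mice, with an SD of 14.6 around a mean of 30.9 CPM, was wider in relation to the mean than that of Irgm1, with an SD of 30.03 around 101 CPM. All 10 calls were kept in each of the 14 alternatives.

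A direct test of day 7 against day 3 in the EZ called 0 of 10 genes, in edgeR and in DESeq2, against a background of 0.145%. The log2 increase of the kainate effect was between 0.86 (Irgm1, SE 0.46) and 1.36 (Iigp1, SE 0.51), and 9 genes had an unadjusted p under 0.05, the exception being Irgm1, as had 2565 of all 21390 genes. The smallest adjusted p was 0.220, for Gbp9.

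**Figure D2:**
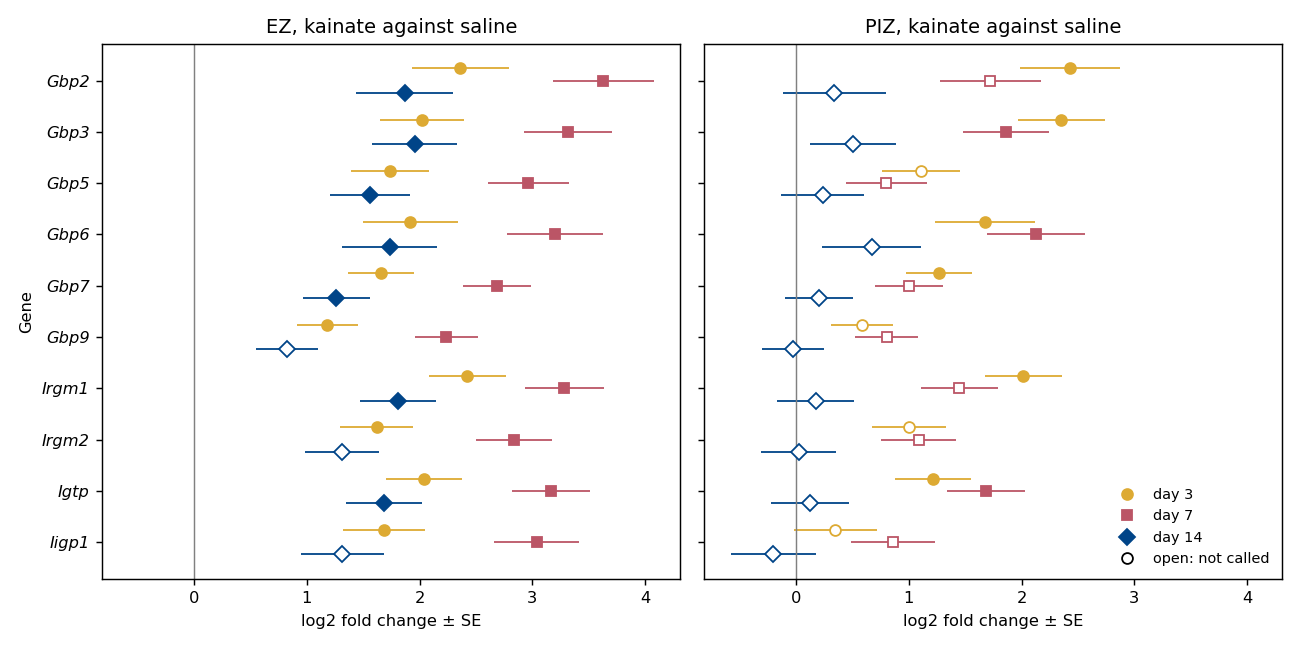
Log2 fold change of kainate against saline for each gene in the EZ (left) and PIZ (right), with standard errors from the edgeR model. Colors and shapes give the day, and open symbols were not called. In the EZ day 7 lies farthest to the right for every gene, and in the PIZ day 14 lies lowest for every gene, between -0.20 and 0.67.

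At day 14 in the EZ, 7 of the 10 genes were called, against a background of 2.32%, and 8 showed no overlap between kainate and saline mice, against 4.58%. The called count changes when single animals of either group are left out. Kainate mouse 27 was the highest, so leaving it out cannot make the 8 genes overlap, and that is no check of them. Gbp2 measured 40.6 CPM in kainate mouse 27 and 6.74, 8.82 and 8.44 CPM in kainate mice 36, 14 and 40, against 3.91, 6.14, 4.39 and 3.30 CPM in the saline mice. Irgm1 measured 75.1 CPM in mouse 27 and 12.5, 15.1 and 16.1 CPM in the other 3, against 9.94, 8.49, 7.46 and 8.07 CPM with saline. The level of mouse 27 was thus like those seen at day 7, and the other 3 kainate mice were just above the saline mice.

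With all mice, the called genes ranged from 1.26 (Gbp7, SE 0.30, adjusted p = 0.00684) to 1.96 (Gbp3, SE 0.38, adjusted p = 0.00152) in log2 fold change. Irgm2 (1.31, adjusted p = 0.0106), Iigp1 (1.32, adjusted p = 0.0249) and Gbp9 (0.82, adjusted p = 0.0741) were not called by edgeR. DESeq2 called 9 of the 10, all but Gbp9, and 731 of all genes. Without mouse 27, 0 of 10 genes were called by edgeR and the log2 fold change was 1.02 for Gbp3, 0.85 for Gbp2, 0.78 for Irgm1 and 0.23 for Gbp9, with adjusted p of 0.246, 0.798, 0.2501 and 1. Over all genes, 504 were DEG with this mouse and 7 without it. The count was also 0 without saline mouse 39 or saline mouse 31, where 59 and 30 of all genes were called, and 3 without saline mouse 24 or saline mouse 28, with 109 and 137 of all genes. When only the 8 libraries of the comparison were modeled it was 0 as well, for the members and for all genes.

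The decline from day 7 to day 14 in the EZ was between 1.36 (Gbp3, SE 0.52) and 1.76 (Gbp2, SE 0.60) on the log2 scale, a fold between 0.295 and 0.389. In edgeR 0 of 10 genes were called, with a background of 0.271%. All 10 had an unadjusted p under 0.05, as had 7081 of all 21390 genes. DESeq2 called 1 of the 10, Gbp9, and 897 of all genes. Without mouse 27 all 10 were called, in a fit that called 4087 of all genes. Without kainate mouse 23 of day 7 the count was 4, with 2333 of all genes called.

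In the PIZ at day 3, on the side that was not injected, 6 of the 10 genes were upregulated, namely Gbp2, Gbp3, Gbp6, Gbp7, Irgm1 and Igtp. The background was 7.12%. Without overlap between kainate and saline mice were 8 genes, all but Gbp9 and Iigp1, against 17.1% of all genes.

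Gbp2 measured 16.7, 14.3, 20.4 and 20.4 CPM with kainate and 3.79, 3.29, 2.74 and 3.46 CPM with saline (log2 fold change 2.43, SE 0.44, adjusted p = 0.000121). Gbp3 measured 25.6, 17.0, 20.4 and 25.0 CPM against 4.13, 4.33, 4.27 and 4.47 CPM (2.35, SE 0.38, adjusted p = 3.02e-05). The saline values of Gbp3 were nearly the same in all 4 mice. Irgm1 rose from 7.81 ± 0.961 to 31.6 ± 3.63 CPM (SD, n = 4; 2.01, SE 0.34, adjusted p = 4.95e-05).

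Iigp1 differed from these. It measured 4.73, 3.24, 4.92 and 4.58 CPM with kainate and 3.30, 3.29, 2.92 and 4.19 CPM with saline (0.35, SE 0.37, adjusted p = 0.533), so that the groups overlapped. The values of Gbp9 (0.58, adjusted p = 0.122), Irgm2 (1.002, adjusted p = 0.0222) and Gbp5 (1.11, adjusted p = 0.0190) also missed the threshold. Gbp6, Gbp7 and Igtp were lost when saline mouse 18 was left out, which reduced the count to 3. That fit called 1337 of all genes, against 1858 with all mice. The log2 fold changes of the lost genes moved only to 1.57, 1.16 and 1.22 from 1.68, 1.27 and 1.22. The call of Igtp was lost in 8 of 14 alternatives and that of Gbp6 in 5 of 14, also without kainate mice 38 or 42 or saline mice 37 or 41 for both genes.

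At day 7 in the PIZ, 3 genes were upregulated, Gbp6, Gbp3 and Igtp, against a background of 0.150%, and 7 had no overlap, against 7.63%. Gbp6 measured 4.40, 9.15, 4.07 and 15.2 CPM with kainate and 2.67, 1.31, 1.53 and 1.97 CPM with saline (2.13, SE 0.44, adjusted p = 0.00901). Igtp measured 7.67, 10.03, 4.84 and 12.3 CPM against 2.87, 2.77, 2.90 and 2.29 CPM (1.68, SE 0.35, adjusted p = 0.00901). Mouse 35 was highest and mouse 21 lowest for both genes.

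These 3 calls lie close to the threshold. The count was 0 without kainate mice 26 or 35 or saline mice 89, 33, 20 or 34, and 1 without kainate mouse 23, in each case as the only mouse left out. Over all genes, 43 were called with all mice, and 11, 30, 13, 7, 9, 7 and 33 without these mice in the same order. Over all alternatives the log2 fold changes remained at or above 1.66 for Gbp3, 1.64 for Gbp6 and 1.47 for Igtp. DESeq2 called 5, adding Gbp2 and Irgm1, and 198 of all genes. All 10 genes had an unadjusted p under 0.05, as had 3104 of all 21390 genes, with log2 fold changes from 0.80 (Gbp5) to 2.13 (Gbp6) for the 10.

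From day 3 to day 7 in the PIZ the kainate effect went down in some genes and up in others, from -0.71 (Gbp2, SE 0.62) to 0.51 (Iigp1, SE 0.52) in log2. None of these 10 differences was called in edgeR, 0 in DESeq2, 0 had an unadjusted p under 0.05, and the background was 0.0234%. At day 14 in the PIZ the log2 fold change was between -0.20 (Iigp1) and 0.67 (Gbp6, SE 0.44). Gbp2 measured 6.69, 2.95, 2.63 and 2.94 CPM with kainate and 4.62, 3.21, 2.64 and 1.43 CPM with saline, and the groups overlapped for each of the 10 genes. Both edgeR and DESeq2 called 0 genes, 0 had an unadjusted p under 0.05, and the background was 0.00935%, or 3.70% for no overlap. Kainate mouse 27 was the highest kainate mouse here too. From day 7 to day 14 in the PIZ, 0 genes were called by either tool with a background of 0%, and 7 had an unadjusted p under 0.05, as had 658 of all 21390 genes. The log2 changes of the 10 genes lay between -0.57 (Gbp5) and -1.56 (Igtp).

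The regions were compared by the difference of their kainate effects, EZ minus PIZ. At day 3 this was between -0.33 (Gbp3, SE 0.52) and 1.34 (Iigp1, SE 0.52) in log2, and 0 of 10 genes were called in edgeR, in DESeq2 or with the mouse as a block, with a background of 0.0655%. At an unadjusted p under 0.05 there was 1 gene, Iigp1, and 3828 of all 21390 genes. The smallest difference was that of Gbp2 (-0.07, SE 0.59).

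At day 7 the effect was larger in the EZ for 6 genes, Gbp5, Gbp7, Gbp9, Irgm1, Irgm2 and Iigp1, with differences of 1.43 (Gbp9, SE 0.39, adjusted p = 0.00767) to 2.18 (Iigp1, SE 0.52, adjusted p = 0.00368). The background was 9.89%. With the mouse as a block, so that the regions were compared within animals, 9 genes were called. The additional genes were Gbp2 (1.99, SE 0.46, adjusted p = 0.00452), Gbp3 (1.56, SE 0.35, adjusted p = 0.00411) and Igtp (1.51, SE 0.35, adjusted p = 0.00475). Gbp6 was not called in either model (1.26, SE 0.48, adjusted p = 0.0468 with the block). Over all genes the count was 2115 without the block and 2356 with it. The unblocked count of members was 0 without saline mice 89, 33 or 20, where 221, 799 and 149 of all genes were called, and 0 without kainate mouse 21, where 1 of all genes was called. It was 1 without kainate mouse 35 or saline mouse 34, with 188 and 654 of all genes. DESeq2 called 8 members and 2916 of all genes. Markers of other cells differed between the regions in the same comparison. All 8 microglia and macrophage markers were called, with a median difference of 2.27 in log2 beside 1.72 for the 10 members, and so were 3 of 5 astrocyte markers. Their part in the difference of the GTPases was not tested.

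Within single mice the sum of the 10 genes was higher in the EZ than in the PIZ in all 12 kainate mice, and in 11 of 12 saline mice. At day 7 the EZ to PIZ ratio of the sum was 3.81, 5.20, 9.55 and 2.44 in mice 23, 26, 21 and 35, and in the saline mice of that day it was between 1.06 and 1.67. Mouse 21 had the second highest sum of these kainate mice in the EZ, 524 CPM, and the lowest in the PIZ, 54.8 CPM. Mouse 35 had 346 CPM in the EZ and the highest PIZ sum, 142 CPM. The order of the mice therefore was not the same on both sides. At day 14 the differences of the kainate effect were between 0.85 (Gbp9) and 1.64 (Irgm1), with 0 genes called by edgeR, DESeq2 or the block model and a background of 0%. At an unadjusted p under 0.05 there were 9 of the 10, and 1562 of all 21390 genes. Without mouse 27 the count was also 0, and Irgm1 then had log2 fold changes of 0.78 (EZ) and -0.035 (PIZ).

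**Figure D3:**
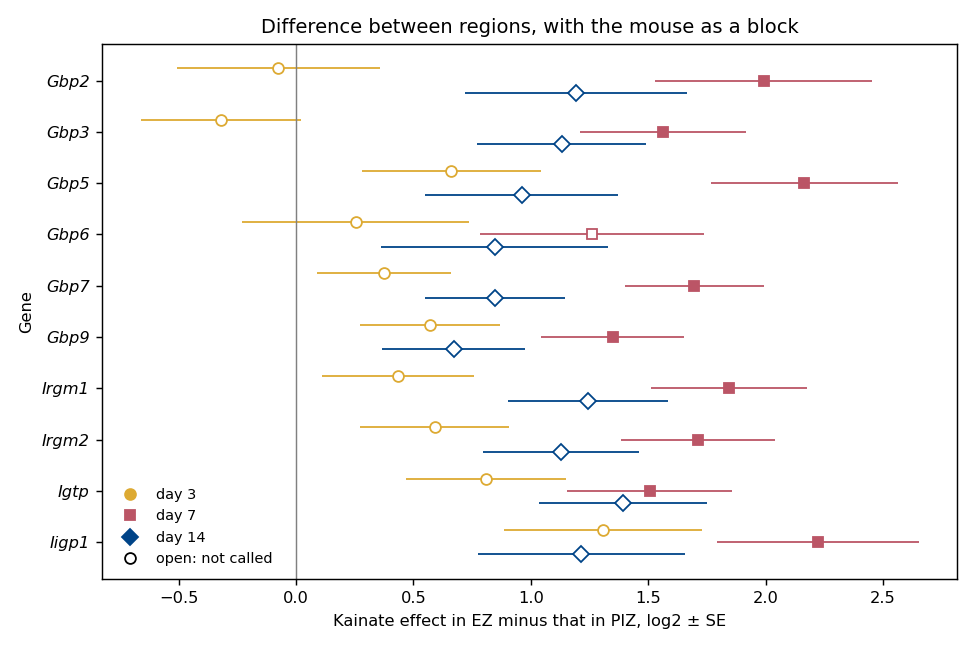
Difference of the kainate effect between EZ and PIZ for each gene, in log2 with standard errors, from the model with the mouse as a block. Points to the right of 0 mean a larger effect in the EZ, and open symbols were not called. At day 7 all genes except Gbp6 were called, and at days 3 and 14 none was.

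The shares of single genes in the summed CPM also differed between saline and kainate mice. In the EZ at day 3 Irgm1 held 19.3% ± 1.93 with saline and 26.9% ± 2.68 with kainate (SD, n = 4), while Gbp7 held 14.8% ± 0.348 and 11.8% ± 0.638 and Gbp9 8.20% ± 1.13 and 4.59% ± 0.594. Gbp3 held nearly the same share in both groups there, 14.6% ± 1.71 and 14.9% ± 0.904. In the EZ at day 7 Gbp9 held 8.24% ± 0.858 with saline and 4.37% ± 1.06 with kainate, Gbp2 8.67% ± 1.94 and 12.7% ± 1.18, and Iigp1 7.37% ± 0.628 and 6.78% ± 1.41. Irgm1 contributed 18.3% ± 2.65 of the summed CPM of the 10 genes in the saline PIZ at day 3 and 24.8% ± 2.48 in the kainate PIZ (SD, n = 4). Gbp2 contributed 7.75% ± 0.739 and 14.0% ± 1.86, and Gbp3 10.1% ± 0.891 and 17.1% ± 1.36. Their gain stood against lower shares of Gbp9, at 9.60% ± 1.37 and 4.79% ± 0.411, and of Iigp1, at 8.05% ± 1.43 and 3.40% ± 0.407. Gbp6 held 3.64% ± 0.681 of the sum in the kainate PIZ at day 3 and 7.86% ± 2.18 at day 7. Its share in the kainate EZ was 3.83% ± 0.277 at day 3 and 6.88% ± 0.270 at day 7. In saline mice it also differed between these days, with 3.95% ± 0.518 and 6.28% ± 1.27 in the EZ and 3.39% ± 0.799 and 5.01% ± 1.72 in the PIZ. These shares are parts of 1 sum and therefore not independent of each other, and they were not tested.

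**Figure D4:**
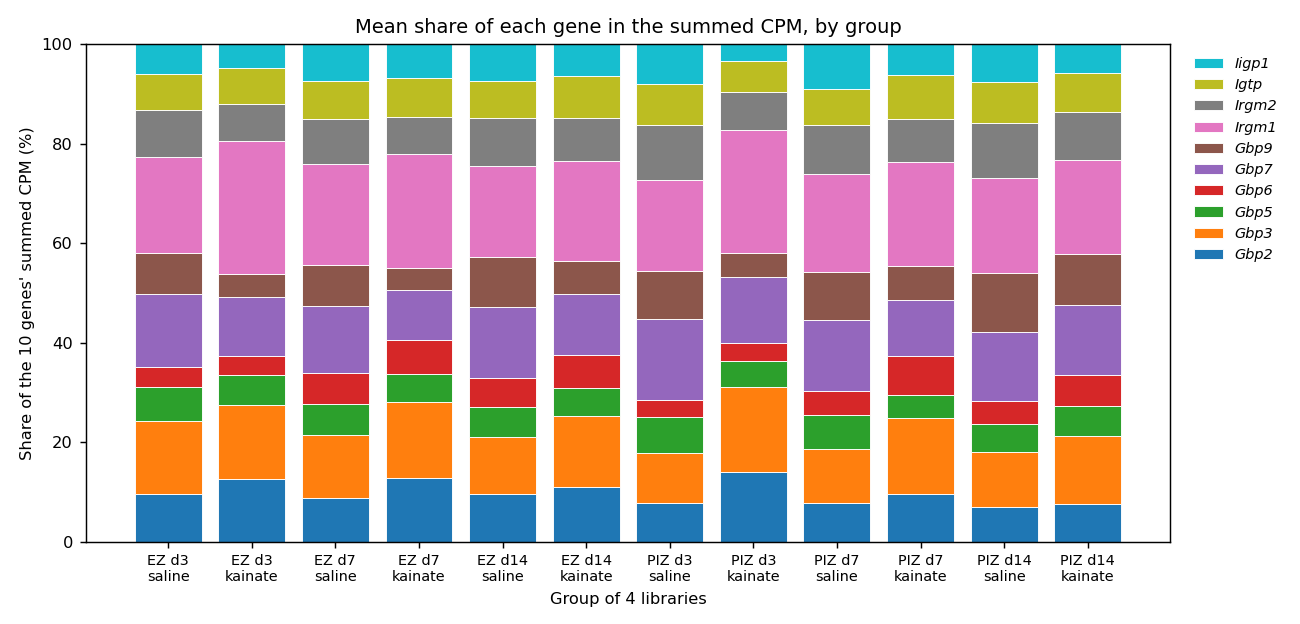
Share of each gene in the summed CPM of the 10 genes, in percent, as the mean of 4 libraries per group. Gbp2, Gbp3 and Irgm1 take a larger part in the kainate PIZ at day 3 than in the saline PIZ, and Gbp9 and Iigp1 a smaller one.

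Within the groups the 10 genes also varied together. The deviations of log2 CPM from the group means correlated between all 45 pairs of genes, with r from 0.68 to 0.92 and a median of 0.82 over 48 libraries. The libraries share animals, depth and scaling, and include mouse 27, so that these values are descriptive. Pairs of other genes were not compared. Over all 48 libraries, the genes outside the 10 whose log2 CPM was most like the mean standardized profile of the 10 were Parp14 (r = 0.9902), Rnf213 (0.988), Tor3a (0.986), Irf7 (0.985) and Trim34a (0.985). Parp14 is an ADP-ribosyltransferase, Rnf213 a large ubiquitin ligase and Irf7 a transcription factor of the type I interferon response.

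Of the ligands, Ifng itself was nearly absent. It had 0 counts in all 24 saline libraries and 9 counts in 8 of the 24 kainate libraries, with no more than 2 in any. Ifnb1, a type I interferon, had 0 counts with saline and 8 counts in 6 kainate libraries. Both had too few counts to be tested, as had Il12b.

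The receptors had more counts. Ifngr1, the ligand-binding subunit, was upregulated in the EZ at day 7 (2.11, SE 0.27, adjusted p = 6.82e-08) and in the PIZ at day 3 (1.03, SE 0.27, adjusted p = 0.00454), and Ifnar2 in both of these comparisons and in the EZ at day 3. Ifngr2, the signal-transducing subunit, had log2 fold changes between -0.03 and 0.31 and was not called in any comparison. Of the 6 tested genes of this list 1, 2 and 0 were upregulated by day in the EZ, and 2, 0 and 0 in the PIZ, so that the EZ count at day 3 was near the background of 16.1%. At an unadjusted p under 0.05 there were 3 in the EZ at day 14, with 3848 of all 21390 genes, and 0 in the PIZ at either later day.

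Of the transcription factors, Irf1, Irf8 and Irf9 were upregulated in the EZ at day 3, in the EZ at day 7 and in the PIZ at day 3, and Irf8 also in the EZ at day 14. Irf9 reached 2.27 (SE 0.26) in the EZ at day 7. The kinases Jak1 and Jak2 were not called in any comparison, with log2 fold changes between -0.12 and 0.43. Among 8 genes of the signal and its factors the number upregulated was 5, 6 and 1 by day in the EZ and 4, 0 and 0 in the PIZ, and 5 had an unadjusted p under 0.05 in the PIZ at day 7.

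The inhibitors did not move as 1 group. Socs3 was upregulated in the EZ at day 3 (4.30, SE 0.70), day 7 (4.85, SE 0.76) and, with mouse 27 included, day 14 (3.69, SE 0.76) and in the PIZ at day 3 (4.33, SE 0.76), but it was 0.76 (SE 0.80) in the PIZ at day 7. Socs1, the classical inhibitor of Jak kinases induced by interferon-gamma, was called in the EZ at days 3 and 7 (2.96, SE 0.58 and 2.78, SE 0.56). Ptpn6, a phosphatase of blood-derived and microglial cells, rose to 4.02 (SE 0.46) in the EZ at day 7. Pias1 had a log2 fold change of -0.53 (SE 0.09) in the EZ at days 3 and 7, below the fold threshold, and Ptpn2 was between -0.07 and 0.25. Of these 5 genes, 3, 3 and 2 were upregulated in the EZ and 2, 0 and 0 in the PIZ, where 2 had an unadjusted p under 0.05 at day 7.

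Among the other targets, 11, 12 and 8 of 12 tested genes were upregulated by day in the EZ and 7, 0 and 0 in the PIZ, with 10 at an unadjusted p under 0.05 in the PIZ at day 7. The chemokine Cxcl10 had a log2 fold change of 5.53 (SE 0.74) in the EZ at day 7. The immunoproteasome subunit Psmb8 had 3.80 (SE 0.44) and the peptide transporter Tap1 3.36 (SE 0.37). Cxcl9, a chemokine that depends on interferon-gamma more than on type I interferon, was called in the EZ at day 7 (3.86, SE 0.83, adjusted p = 0.000200) and not at day 3 (1.99, SE 1.09, adjusted p = 0.133). It had 574 counts over all kainate and 28 over all saline libraries. At day 14 in the EZ it had 152 counts with kainate, 126 of them in 1 library, and 2 with saline.

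Of 14 other GBP and IRG genes listed, 12 were tested. Irgc had too few counts, and Gm4951 was not matched to the count table under that name and was not assessed. Of the 12, 7, 11 and 2 were upregulated by day in the EZ and 1, 1 and 0 in the PIZ, where the count at day 3 was near the background of 7.12%. In the EZ at day 7 Ifi47 reached 3.22 (SE 0.40), Gbp4 1.62 (SE 0.26), Tgtp1 2.99 (SE 0.46) and Gbp10 3.20 (SE 0.47). Gbp10 is one of the relatives that share sequence with Gbp6. Irgq, a relative that interferon is not known to induce, had -0.53 (SE 0.09) and was the tested gene of this list that was not called at day 7. None of the genes of these lists was downregulated by the thresholds used. In the PIZ at day 14, 0 genes of these 5 lists were called, and 0 had an unadjusted p under 0.05 apart from 2 of the other targets. The counts at day 14 in the EZ include mouse 27, without which 7 genes of all kinds were called, as given above.

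Markers of other cell types moved in the same comparisons. Of 8 microglia and macrophage markers 7, 8 and 6 were upregulated by day in the EZ, and 8, 0 and 0 in the PIZ. In the PIZ at day 7, 3 of them had an unadjusted p under 0.05 and at day 14, 0. The summed CPM of these 8 markers was between 1848 and 6989 in the kainate EZ at day 7 and between 478 and 526 in the saline EZ. At day 14 it was 3443 in kainate mouse 27 and between 536 and 791 in the other 3. For every 100 CPM of these markers the 10 GTPases had a median of 9.69 CPM in the saline EZ and 12.1 CPM in the kainate EZ at day 7, with a range from 6.88 to 22.3 CPM over the kainate mice. At day 3 in the EZ it was between 7.38 and 8.99 CPM with saline and between 10.2 and 13.8 CPM with kainate, without overlap. That saline group had a median of 7.94 CPM, below the 9.69 and 10.4 CPM of the saline EZ at days 7 and 14. Its markers summed to a median of 677 CPM, against 492 and 452 CPM at those days. At day 3 in the PIZ the medians of GTPases per 100 CPM of markers were 10.7 CPM with saline and 10.3 CPM with kainate. At day 7 in the PIZ they were 9.72 and 13.2 CPM, without overlap between the groups. The part of microglial number in the rise of the GTPases was not tested.

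Kainate mice 21 and 35 had more of the microglia markers at day 7 in the EZ, 6989 and 5036 CPM, than mice 23 and 26, with 1848 and 2691 CPM. They also had less of the granule cell markers, 164 and 279 CPM against 975 and 917 CPM. The GTPases did not follow this order, with sums of 524, 346, 310 and 601 CPM in mice 21, 35, 23 and 26.

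The T and NK cell markers, 9 genes including Cd3e and Gzmb, summed to between 0.594 and 1.91 CPM in saline libraries and between 0.939 and 9.65 CPM in kainate libraries, the highest being mouse 27 in the EZ at day 14. In the EZ the groups did not overlap on any day. The sum was between 1.73 and 3.10 CPM with kainate and between 0.922 and 1.36 CPM with saline at day 3, between 3.31 and 9.41 CPM and between 0.8004 and 1.17 CPM at day 7, and between 1.69 and 9.65 CPM and between 0.860 and 1.30 CPM at day 14. Only 3 of the 9 had enough counts to be tested. Of these, Cd4 and Il2rb were upregulated in the EZ at day 7, and Cd4 is also made by microglia and macrophages. The defining T cell genes had few counts over the 24 kainate and the 24 saline libraries, 59 and 22 for Cd3e, 79 and 11 for Cd3g, and 45 and 10 for Cd3d. Cd8a had 117 and 22, Nkg7 102 and 19, and Gzmb 95 and 11. Astrocyte markers were upregulated as well, with 3, 4 and 2 of 5 in the EZ and 3, 0 and 0 of 5 in the PIZ. Of all tested genes, 16.1%, 20.6% and 2.32% were upregulated by day in the EZ, and 7.12%, 0.150% and 0.00935% in the PIZ. For these and the microglia markers, the counts at day 14 in the EZ include mouse 27. Without that mouse 7 genes of all kinds were called. Of 6 endothelial markers 4, 4 and 0 were upregulated by day in the EZ, and the PIZ had 0 on each day. Monocyte and neutrophil markers gave 2, 2 and 0 of 5 tested genes in the EZ, and 0 on each day in the PIZ. At an unadjusted p under 0.05 the endothelial list had 2, 0 and 0 in the PIZ and the monocyte and neutrophil list 2, 0 and 0, with 7641 of all 21390 genes at day 3. Of 4 oligodendrocyte markers 0, 1 and 0 were upregulated by day in the EZ, the 1 being near the background of 20.6%, and 0 on each day in the PIZ. Their median log2 fold changes by day in the EZ were -0.20, 0.69 and 0.77. All 4 had an unadjusted p under 0.05 at days 7 and 14 there, as had 13128 and 3848 of all 21390 genes. Of 3 tested choroid plexus markers 1, Kl, was lower with kainate in the EZ at day 3 (log2 fold change -1.50) and day 7 (-1.91), and no other comparison of kainate with saline called any of them. By the same thresholds 1841 of all 21390 genes were lower at day 3. At day 7, 6960 genes were called in either direction, 4413 of them higher with kainate. The part of these cells in the results was not tested.

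**Figure D5:**
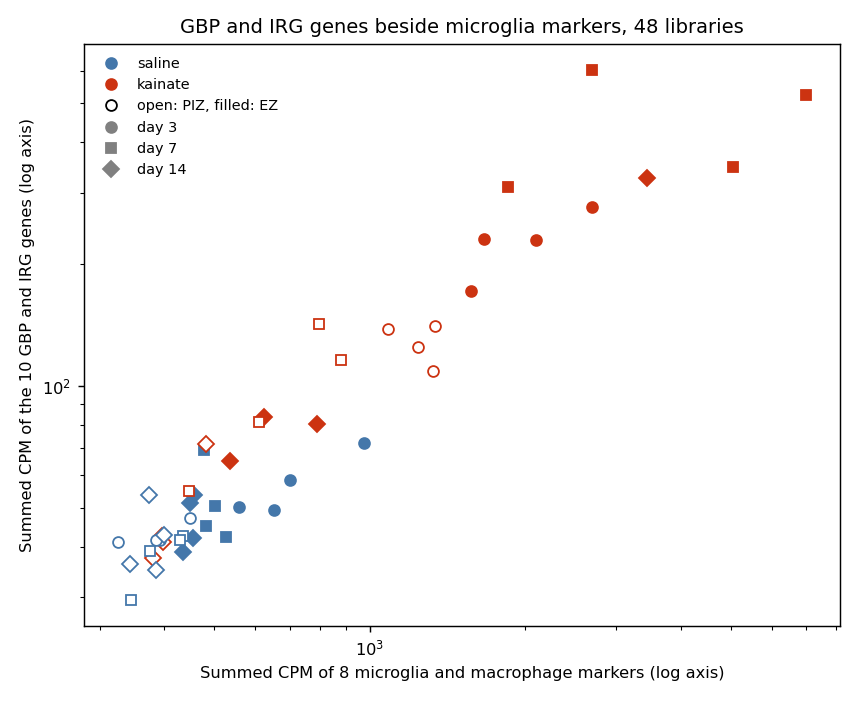
Summed CPM of the 10 GTPases against the summed CPM of 8 microglia and macrophage markers in the 48 libraries, both on log axes. Filled symbols are EZ and open symbols PIZ, blue is saline and red kainate, and shapes give the day. Libraries with more of the markers tend to have more of the GTPases, and the 4 kainate EZ libraries of day 7 spread from 6.88 to 22.3 CPM of GTPases per 100 CPM of markers.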

How the data were processed

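Per the authors, reads from polyA-selected, stranded libraries were trimmed with fastp 0.20.1, aligned to GRCm39 with HISAT2 2.2.1 and assigned to Gencode M28 annotations by featureCounts (Subread 1.6.4), with multi-mapping reads counted at their primary alignment. The authors deposited raw counts per gene and library without normalization. Gene positions and exon lengths were taken from Gencode M39, to which 98.9% of gene identifiers were matched. The counts were analyzed in R 4.3.3 with edgeR 4.0.16: filterByExpr over 12 groups, TMM scaling and a quasi-likelihood model of all 48 libraries, with 15 comparisons and adjustment over the 21390 genes of each. Standard errors (SE) were derived from the quasi-likelihood statistic F, as the size of the log2 fold change over √F. CPM were TMM-scaled, and log2 CPM used a prior count of 2. The script was tested on simulated data. Alternatives were DESeq2 1.42.0 (the authors used version 1.32.0 in R 4.1.1), RLE size factors, no filter, at least 10 counts in every library, only the compared groups, an adjusted p under 0.05, animals as a replicate block, and omission of single mice. The 2 libraries of a mouse come from the same animal, and their residuals correlated between -0.0536 and 0.376. The 10 genes and the lists were chosen with earlier results of these data known. Named are all members, the genes of these lists where they carry a result, and the 5 genes most like the members' mean profile. Separate mice were the replicates. Intervals for counts were not used. Not every gene of the lists is reported here by name.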

Additional observations from a re-analysis of the deposited data

Results flagged for a closer look

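In log2 CPM, 1 library of a group of 4 lay far from the other 3 in 11 of 120 combinations of gene and group. For a single combination chance gives about 1 in 20. The genes were measured in the same libraries and varied together, so the combinations are not independent. The 11 therefore cannot be compared with that rate. A library of kainate mouse 27 was the high one in 7 of the 11. In the EZ at day 14 it had 5.35 for Gbp2, 4.35 for Gbp5, 6.23 for Irgm1, 4.62 for Irgm2 and 4.34 for Iigp1, where the highest of the other 3 mice had 3.16, 2.14, 4.02, 2.89 and 2.40. In the PIZ at day 14 it had 2.76 for Gbp2 and 3.20 for Gbp7, against 1.603 and 2.59. Saline mouse 37 was low for Gbp9 in the EZ at day 3, at 2.05. For Iigp1, kainate mouse 30 was low in the PIZ at day 3, at 1.73, saline mouse 20 high in the EZ at day 7, at 2.26, and saline mouse 39 low in the PIZ at day 14, at 0.85.

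The kainate effect differed between EZ and PIZ at day 7 by the edgeR test of the difference, by 2.16 for Gbp5, 1.68 for Gbp7, 1.43 for Gbp9, 1.84 for Irgm1, 1.75 for Irgm2 and 2.18 for Iigp1 on the log2 scale.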

How the results depend on the processing

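With only the groups compared in the model the count of called members was 0 in the EZ at day 14, 1 in the PIZ at day 7 and 1 between saline regions. These fits called 0, 154 and 160 of all genes, against 504, 43 and 5 in the model of all libraries. An adjusted p under 0.05 gave 5 in the PIZ at day 7 and 8 for EZ day 14 minus day 7, with 229 and 2378 of all genes called. For the same comparisons DESeq2 gave 5 and 1, with 198 and 897 of all genes. Leaving out 1 mouse gave 0 to 9 in the EZ at day 14, 3 to 6 in the PIZ at day 3, 0 to 3 in the PIZ at day 7, 0 to 6 for EZ minus PIZ at day 7 and 0 to 10 for EZ day 14 minus day 7. With mouse as a replicate block the counts for EZ minus PIZ were 0, 9 and 0 at days 3, 7 and 14 and 0 in saline mice. Among the log2 fold changes of kainate against saline, signs turned only in the PIZ at day 14, where nothing was called, with ranges over left-out mice of -0.084 to 0.63 for Gbp2, -0.035 to 0.29 for Irgm1, -0.29 to 0.24 for Irgm2, -0.20 to 0.28 for Igtp and -0.11 to 0.035 for Gbp9. Where a mouse was left out, fewer libraries were tested; otherwise the cause was not tested. Counts of Ifng and Ifnb1 were too low to compare.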
